A study of Mus musculus with 4 samples.

Results

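The hormones that set vascular tone and salt excretion in the kidney were examined through their genes in whole kidneys from Usp2 knockout (Usp2-KO) and wild-type (WT) littermate mice. The group comprised Agt, Ace, Agtr1a, Edn1, Ednra, Ednrb, Npr1, Npr3 and Nos3, taken from the array by gene symbol, and 8 of these 9 genes were measured among the 19934 genes tested. Ednra, the endothelin A receptor, was matched to no row and is not analysed here. Each of the 8 had a single row on the array.

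Renin and angiotensin-converting enzyme turn angiotensinogen into angiotensin II, which constricts vessels and promotes sodium retention. Endothelin-1 constricts through the endothelin A receptor, while the endothelin B receptor, abundant in collecting duct and endothelium, favours sodium excretion and the release of nitric oxide. Natriuretic peptides and nitric oxide both act by raising cyclic GMP and relax vessels, the former through the membrane guanylyl cyclase encoded by Npr1 and the latter through a soluble one.

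The mice were C57BL6/N males aged 12 weeks, housed for 3 weeks with 12 h of light and 12 h of darkness and dissected at Zeitgeber time 12. Both groups came from the same 6 littermate pairs, and equal amounts of kidney RNA of 3 mice went into each of 2 WT and 2 Usp2-KO pools, with 1 array for each pool. An array therefore averages over its mice and shows nothing of the spread between them, and the labels used here do not give the deleted exons or whether the deletion is limited to a cell type. With 4 arrays in all, precision is limited throughout.

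Usp2, which encodes a ubiquitin-specific protease, had log2 values of 11.63 and 11.71 in the WT pools and 7.65 and 7.60 in the Usp2-KO pools, so the arrays matched their labels. Array medians lay between 7.44 and 7.46. Markers of the proximal tubule, the bulk of the renal cortex, had mean log2 levels of 13.17 and 13.15 in WT and 13.22 and 13.17 in Usp2-KO pools. There are no detection calls, so olfactory receptor genes, nearly all silent in kidney, served as a reference for dim signal: 95% of 1027 such genes had a mean log2 value under 6.67. Of the 8 measured members 7 lay above that value and Edn1, at a mean of 6.47, lay below it.

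No difference between the genotypes in these 8 genes passed the test. For 7 of them the pools of the 2 genotypes overlapped, as they did for 12180 of the 19934 genes tested. In the limma fit over all genes, 0 of the 8 passed an adjusted p of 0.05, where 1 gene of 19934 (0.00502%) passed, and that gene was Usp2. At an unadjusted p under 0.05 the count was also 0 of 8, against 9.11% of all genes. With same-numbered pools as a replicate block, 0 of 8 passed the adjusted threshold, against 0.768% of all genes. Differences, always given as Usp2-KO minus WT on the log2 scale, ran from -0.05 for Npr1 to 0.13 for Ednrb, with 7 higher and 1 lower as deposited, 6 and 2 after centring the arrays on their medians, and 5 and 3 after repeated quantile normalization. Their median was 0.03, against -0.01 for all genes, and the median absolute difference was 0.04 against 0.07. Taken over the 8 genes, the 95% confidence intervals reached from -0.24 (Npr1) to 0.34 (Ednrb), which is 0.85-fold to 1.27-fold. Changes of the measured signal in these pools beyond that range lie outside the interval of every measured member. For Edn1, whose signal lay in the range of olfactory receptor genes, the interval does not bound a change of the transcript.

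**Figure D1:**
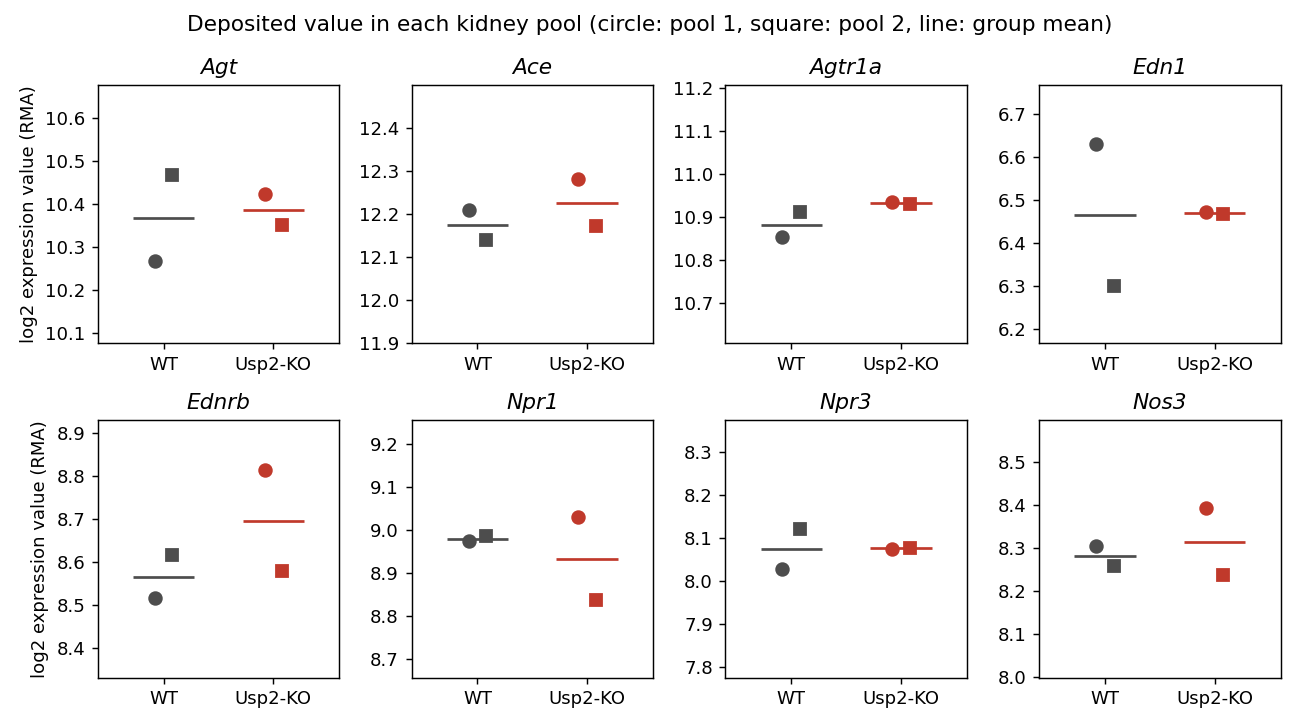
Deposited log2 expression value (y axis, RMA, each panel spanning the same width around its gene's mean) of the 8 measured genes in the 2 WT pools (grey) and the 2 Usp2-KO pools (red), with pool 1 as circles, pool 2 as squares and the group means as lines. The groups overlap for every gene but Agtr1a, whose Usp2-KO values of 10.94 and 10.93 lie just above the WT values of 10.85 and 10.91. Over all 19934 genes tested, the groups overlap for 12180.

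In the renin-angiotensin branch, the group means of precursor, enzyme and receptor differed by at most 0.05, and with 1 pool left out the difference reached 0.12 for Agt and 0.11 for Ace. Agt encodes angiotensinogen, the precursor of the angiotensins, which kidney makes mainly in the proximal tubule. Its log2 values were 10.27 and 10.47 in WT and 10.42 and 10.35 in Usp2-KO pools. The 2 Usp2-KO pools fell between the WT pools, and the difference was 0.02 (SE 0.09, 95% confidence interval -0.18 to 0.21, adjusted p = 0.966). Fat cells also make Agt, and the mean level of 6 measured adipocyte markers was 7.53 and 7.52 in WT pools but 7.05 and 7.48 in Usp2-KO pools. Of these 6 markers 5 were lower and 1 higher, or 4 and 2 after repeated quantile normalization. The pool lowest in adipocyte markers, Usp2-KO pool 1, had the second highest Agt value, and the part of fat cells in the Agt value was not tested. Proximal tubule markers differed by a mean of 0.03, with 5 of 6 higher, or 3 of 6 after repeated quantile normalization.

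Ace encodes the enzyme that cuts angiotensin I to angiotensin II and also breaks down bradykinin. It read 12.21 and 12.14 in WT pools against 12.28 and 12.17 in Usp2-KO pools. Usp2-KO pool 1 was the highest of the 4, and Usp2-KO pool 2 lay between the WT pools. The difference of 0.05 (SE 0.08, 95% confidence interval -0.12 to 0.22) had an adjusted p of 0.888 in limma.

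Agtr1a, the principal angiotensin II receptor of mouse kidney, gave 10.85 and 10.91 in WT and 10.94 and 10.93 in Usp2-KO pools. Both Usp2-KO pools were above both WT pools, the only such case among the 8 genes, while 19.8% of all genes had groups separated in this direction and 19.1% in the other, where 0 of the 8 genes lay. The WT pools (SD 0.04) lay slightly farther from each other than the group means did, which were 0.05 apart (SE 0.07, 95% confidence interval -0.11 to 0.21, adjusted p = 0.881). The exact permutation test over the arrays, two-sided, gave 0.333, the smallest p that 2 pools against 2 allow. Mesangial and interstitial cells carry this receptor, and 5 of their markers had mean levels of 9.57 and 9.65 in WT and 9.65 and 9.57 in Usp2-KO pools, with 2 higher and 3 lower.

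In the endothelin branch Ednrb showed the largest difference of the 8 genes, and it rested on 1 pool. Edn1 encodes the precursor of endothelin-1, made by collecting duct and endothelium. Its values were 6.63 and 6.30 in WT and 6.47 and 6.47 in Usp2-KO pools. The WT pools lay on either side of the Usp2-KO pools, with an SD of 0.23 in WT, and the means differed by 0.01 (SE 0.10, 95% confidence interval -0.23 to 0.24, adjusted p = 0.994). Its signal was within the range of the olfactory receptor genes, so transcript and background cannot be told apart here.

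Ednrb, which encodes the endothelin B receptor, read 8.52 and 8.62 in WT and 8.81 and 8.58 in Usp2-KO pools. Usp2-KO pool 1 stood above the other 3, and Usp2-KO pool 2 lay between the WT pools. The difference of 0.13 (SE 0.09, 95% confidence interval -0.08 to 0.34), 1.09-fold, had an unadjusted p of 0.191 and an adjusted p of 0.717 in limma. Without Usp2-KO pool 1 the difference was 0.01, and without Usp2-KO pool 2 it was 0.25 with an unadjusted p of 0.028 (adjusted p = 0.542). It was 0.08 when WT pool 1 was left out. Because the samples are whole kidney, a change in the number of cells of a type and a change in RNA per cell cannot be told apart. Of 8 smooth muscle and pericyte markers 7 were higher (6 after repeated quantile normalization), and their mean level was 8.83 and 8.96 in WT and 9.01 and 8.95 in Usp2-KO pools, also highest in Usp2-KO pool 1. Of 10 endothelial markers 9 were lower, with mean levels of 9.95 and 10.03 in WT and 10.01 and 9.91 in Usp2-KO pools. Of 4 principal cell and inner medulla markers 3 were higher, with a mean level of 9.76 and 9.75 in WT and 9.76 and 9.69 in Usp2-KO pools. These 4 did not move together: the urea transporter gene Slc14a2 differed by -0.47 (adjusted p = 0.242 in limma). The water channel genes Aqp3 and Aqp2 differed by 0.19 and 0.11 (adjusted p = 0.493 and 0.72 in limma). The part of these cells in the Ednrb value was not tested.

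**Figure D2:**
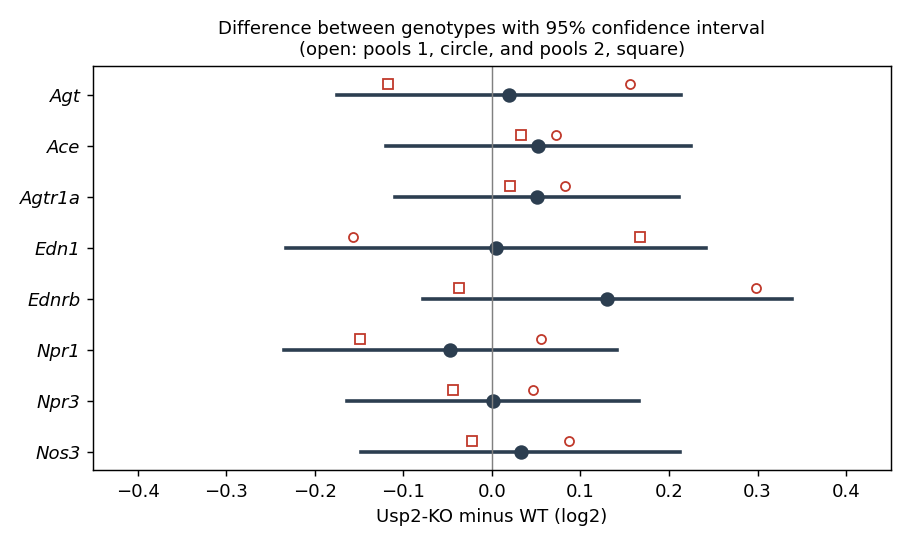
Usp2-KO minus WT on the log2 scale (x axis) for the 8 measured genes, with filled points for the fitted difference, bars for its 95% confidence interval and open symbols for pools 1 (circle) and pools 2 (square) taken alone. Every interval includes 0, and Ednrb shows the widest gap between the comparisons of same-numbered pools, with 0.30 in pools 1 and -0.04 in pools 2.

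For both natriuretic peptide receptors the group means differed by less than the 2 pools of the more variable genotype did. Npr1 encodes the guanylyl cyclase receptor of atrial and B-type natriuretic peptides. It read 8.97 and 8.99 in WT and 9.03 and 8.84 in Usp2-KO pools. The Usp2-KO pools enclosed the WT pools, and the difference was -0.05 (SE 0.08, 95% confidence interval -0.24 to 0.14, adjusted p = 0.915). Npr3 encodes the clearance receptor, which removes natriuretic peptides and lacks a cyclase domain. It gave 8.03 and 8.12 in WT and 8.08 and 8.08 in Usp2-KO pools. Here the WT pools enclosed the Usp2-KO pools, and the difference was 0.00 (SE 0.07, 95% confidence interval -0.16 to 0.17, adjusted p = 0.998). Both receptors are also made in the glomerulus, where the mean level of 5 podocyte markers was 8.85 and 8.79 in WT and 8.87 and 8.84 in Usp2-KO pools, with 2 markers higher and 3 lower.

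Nos3 encodes endothelial nitric oxide synthase. Its values were 8.31 and 8.26 in WT and 8.39 and 8.24 in Usp2-KO pools, so that the Usp2-KO pools were the highest and the lowest of the 4. The difference was 0.03 (SE 0.08, 95% confidence interval -0.15 to 0.21, adjusted p = 0.936). In same-numbered pools it differed by 0.09 and -0.02, and the mean level of the endothelial markers by 0.06 and -0.13, with Usp2-KO pool 2 the lowest array in both. The part of endothelial cells in the Nos3 value was not tested.

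Differences between 2 genes within an array cancel any offset of that array, and 3 such pairs were compared. Npr3 minus Npr1, the clearance receptor against the signalling receptor, changed by 0.05 between genotypes, from -0.90 ± 0.06 to -0.86 ± 0.14 (SD, n = 2 pools). Ace minus Agt changed by 0.03, from 1.81 ± 0.19 to 1.84 ± 0.03, and Edn1 minus Nos3 by -0.03, from -1.82 ± 0.20 to -1.85 ± 0.11. The groups overlapped in all 3 pairs, and the exact permutation test (two-sided) gave a p of 1 for each. With 2 pools against 2 that test cannot go below 0.333, so it cannot decide whether a pair changed. With 1 pool left out, each of the 3 changes turned sign: they ran from -0.05 to 0.15, from -0.10 to 0.17 and from -0.17 to 0.11 in that order. The last pair is further limited by Edn1, whose signal lay in the range of olfactory receptor genes. Only the change of such a difference can be read, since the rows of separate genes have no common scale.

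The design text keeps littermates matched between pools without saying which pool matches which, and same-numbered pools are set side by side here. The comparisons of same-numbered pools disagreed in sign for 6 of the 8 genes, against 48.1% of all genes. In pools 1, 7 of the 8 genes were higher in Usp2-KO kidney, Edn1 being the exception, with a median difference of 0.08 against 0.01 for all genes. In pools 2, 3 of the 8 were higher (Ace, Agtr1a and Edn1), with a median of -0.03 against -0.01. Usp2-KO pool 1 was the highest of the 4 arrays for Ace, Agtr1a, Ednrb, Npr1 and Nos3, and for 25.2% of all genes.

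**Figure D3:**
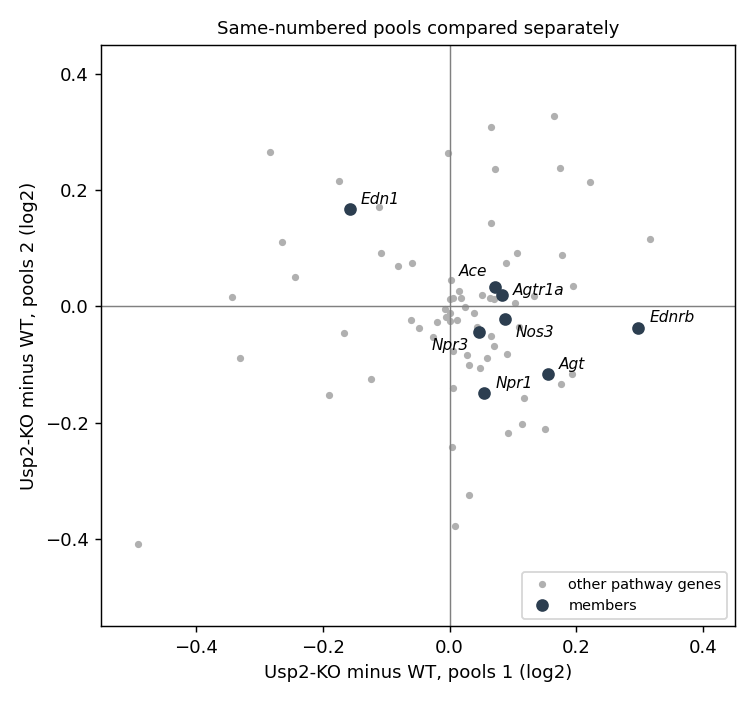
Usp2-KO minus WT on the log2 scale in pools 1 (x axis) and pools 2 (y axis) for the 8 measured genes (dark, named) and 67 other genes of the same pathways (grey). Ace and Agtr1a are the 2 members with the same sign in both comparisons, and Ednrb reaches 0.30 in pools 1 with -0.04 in pools 2.

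Another 74 genes of these pathways were listed, of which 67 were measured. Ren1, Agtr1b, Lnpep, Klk1, Itpr1 and Adrbk1 were among those matched to no row and are not analysed here. None of the 67 passed the adjusted threshold in limma. At an unadjusted p under 0.05 there were 4 higher and 3 lower, 10.4% of the 67 against 9.11% of all genes, and the median difference was 0.00. Both Usp2-KO pools lay above both WT pools for 16 of the 67, against 19.8% of all genes, and below them for 8, against 19.1%.

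Of the other 11 renin-angiotensin genes, 6 were higher and 5 lower, with a median of 0.01. Mas1, a receptor for angiotensin-(1-7), read 6.46 and 6.46 in WT and 6.64 and 6.70 in Usp2-KO pools, with both Usp2-KO pools above WT and a difference of 0.21 (SE 0.07, unadjusted p = 0.0176, adjusted p = 0.440). Its level was in the range of olfactory receptor genes. Mme, neprilysin, which degrades natriuretic peptides and angiotensins, was at 10.11 and 10.11 in WT and 10.18 and 10.42 in Usp2-KO pools. Its difference of 0.19 (adjusted p = 0.580) was 0.07 without Usp2-KO pool 2. Ctsg, a leukocyte protease able to form angiotensin II, differed by -0.16 (adjusted p = 0.646), and by -0.04 without WT pool 1, at a level in the range of olfactory receptor genes.

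The 6 other endothelin genes had the smallest median absolute difference of the lists, 0.03, with 3 higher, 3 lower and 0 at an unadjusted p under 0.05. Ece1, the enzyme that releases mature endothelin-1, gave 10.70 and 10.78 in WT and 10.79 and 10.56 in Usp2-KO pools, with a difference of -0.06 (adjusted p = 0.886) and Usp2-KO pool 1 and pool 2 as the highest and the lowest array. Edn3, another endothelin precursor, differed by -0.04 and Ece2, a related converting enzyme, by -0.04.

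Among 17 other genes of natriuretic peptides and cyclic GMP, 8 were higher and 9 lower (6 and 11 after repeated quantile normalization), and 3 had an unadjusted p under 0.05, 17.6% against 9.11% of all genes. Of these, 2 encode the cyclic GMP-dependent kinases. Prkg1, the kinase through which cyclic GMP relaxes smooth muscle, read 6.91 and 6.89 in WT and 7.13 and 7.10 in Usp2-KO pools. The pools of a genotype differed little (SD 0.01 and 0.02) and same-numbered pools differed by 0.22 and 0.21. The difference of 0.22 (SE 0.07, unadjusted p = 0.0126) had an adjusted p of 0.402. Prkg2, the kinase of epithelia, gave 5.79 and 5.78 in WT and 5.96 and 6.11 in Usp2-KO pools, a difference of 0.25 (SE 0.08, adjusted p = 0.398). A second row of Prkg2 with lower signal showed 0.00, and both rows were in the range of olfactory receptor genes. Nppa, the precursor of atrial natriuretic peptide, was at 7.10 and 6.97 in WT and 6.77 and 6.88 in Usp2-KO pools. The difference was -0.21 (SE 0.08, adjusted p = 0.483), and -0.14 without WT pool 1. The mean of Nppa, 6.93, was little above 6.67, under which 95% of olfactory receptor genes lay. Npr2, the receptor of C-type natriuretic peptide, differed by 0.04.

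Of the 12 other nitric oxide genes, 5 were higher, 7 lower and 0 had an unadjusted p under 0.05. Nos2, the inducible synthase, differed by -0.12 (adjusted p = 0.640). Nostrin, which binds Nos3 and moves it from the membrane, had a level in the olfactory receptor range and differed by 0.12 (0.06 without Usp2-KO pool 1). Ddah2, an enzyme that clears a natural inhibitor of the synthases, differed by -0.12 (-0.03 without Usp2-KO pool 2). Nos1, the neuronal synthase that is also made by the macula densa, differed by 0.01.

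The kallikrein-kinin list, whose peptides Ace degrades, had 3 of 7 genes higher and 4 lower, with a median of -0.15. Its median absolute difference was 0.15, against 0.07 for all genes. At an unadjusted p under 0.05 in limma there were 2 of the 7 (28.6%), both lower, against 9.11% of all genes. Bdkrb2, the bradykinin B2 receptor, showed the largest absolute difference among the 67 genes. It read 7.72 and 7.71 in WT and 7.23 and 7.30 in Usp2-KO pools, with a difference of -0.45. Same-numbered pools differed by -0.49 and -0.41. In limma the unadjusted p was 0.000151 and the adjusted p 0.251. The adjusted p was 0.00299 with same-numbered pools as a replicate block and 0.285 with the pairing crossed. Bdkrb2 was the 1 gene of the 67 to pass with same-numbered pools as a block, where 0.768% of all genes passed. Its differences were alike in both sets of pools, but passing in that limma fit does not require this. The adipocyte marker Adipoq had an adjusted p of 0.0038 there, with differences of -0.83 in pools 1 and -0.12 in pools 2. Cpn2 and Cpn1, the subunits of a carboxypeptidase that trims kinins, differed by -0.17 (unadjusted p = 0.0366, adjusted p = 0.515) and -0.19. Cpn1 was at -0.06 without WT pool 2, and the level of Cpn2 was in the range of olfactory receptor genes.

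Of 14 genes of G protein signalling behind the angiotensin II and endothelin receptors, 9 were higher and 5 lower, with a median of 0.02. Rgs2, which dampens signals of these receptors, read 7.97 and 8.15 in WT and 8.29 and 8.26 in Usp2-KO pools. Its difference of 0.22 (SE 0.08, unadjusted p = 0.0266) had an adjusted p of 0.470, and it was 0.13 without WT pool 1. Prkca, a protein kinase C, differed by 0.15, and Rgs5, also a pericyte marker, by 0.13.

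**Figure D4:**
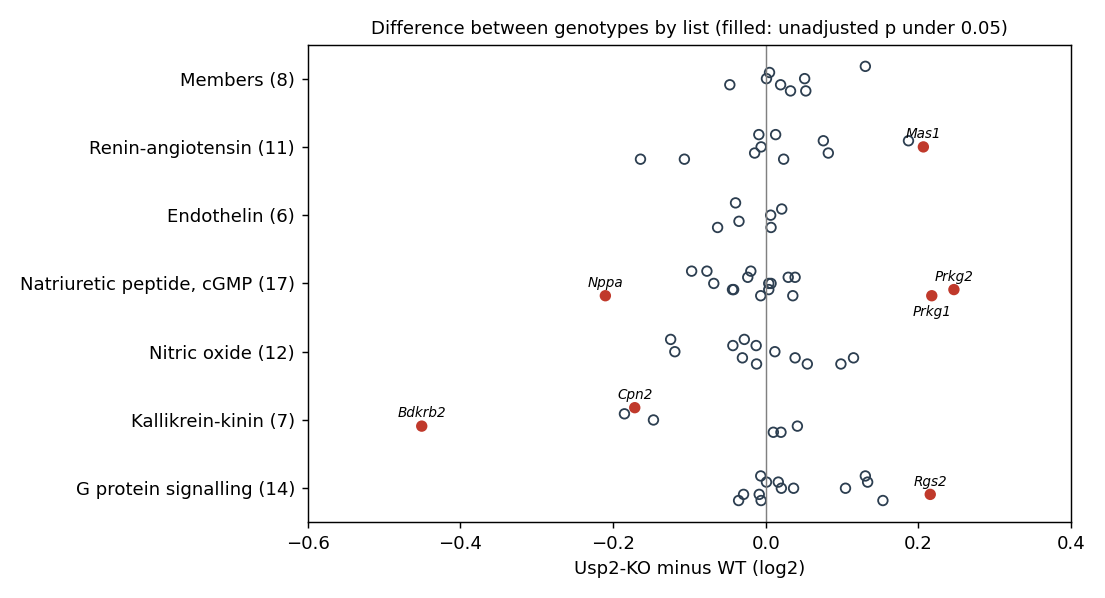
Usp2-KO minus WT on the log2 scale (x axis) for the 8 measured members and for the 67 other pathway genes by list (number of genes in brackets), with filled and named points for an unadjusted p under 0.05. The members lie between -0.05 and 0.13, and Bdkrb2 is the farthest from 0 at -0.45.

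Genes whose values followed a member most closely over the 4 arrays were sought for the 3 members of smallest p. The measure was the root mean square difference of the deviations from each gene's mean, on the log2 scale. For Ednrb these were Meikin, Pdhx and Zbtb2, with 0.01 each among 5077 genes of similar or larger range. For Agtr1a they were Dlg2, Sirt3 and Zdhhc9, and for Ace they were Med20, Mcm6 and Olfr1509, all under 0.01. With 4 arrays and so many candidates such closeness is a description only.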

How the data were processed

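The deposited table holds log2 expression values that the authors computed by RMA, as stated in the submitters' processing notes. The method corrects background, equalises array distributions and summarises probes. The software version is not given in the sources used here. Of 28270 rows, 21780 had 1 gene symbol in the platform annotation, 1617 several and 4873 none listed. The row with the highest mean was kept per gene, with no filter on signal, leaving 19934 genes. Quantile normalization can shrink a difference shared by most genes.

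Usp2-KO minus WT was fitted over all genes with limma 3.58.1 in R 4.3.3 (lmFit, eBayes) with genotype as the term and Benjamini-Hochberg adjustment over all genes. The prior had 6.87 degrees of freedom, and 8.87 in total. The script was tested on simulated data. Figures used matplotlib 3.10.9.

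The series' design text says that the pools keep littermates matched but does not say which pool matches which. Same-numbered pools were taken as pairs, which is uncertain: deviations of same-numbered pools from group means correlated at -0.121 across genes. The replicate block was an alternative, and the crossed pairing was added after seeing that value. The other alternatives were an intensity trend, a robust prior, 2 signal filters, the mean of all rows, all rows tested singly, median centring, repeated quantile normalization, a threshold of 0.10 and each pool left out.

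Members and lists were chosen with earlier results of these data known. The rule named all members, Usp2, Ren1, Agtr1b, Edn3, Ece1, Nppa, Npr2, Nos1, Bdkrb2, up to 3 genes of smallest unadjusted p per list, and for the 3 members of smallest p the 3 genes of nearest pattern, without predicted gene models and with a range of at least 0.8 of the member's. A further gene of that rule is not reported here.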

Additional observations from a re-analysis of the deposited data

How the results depend on the processing

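In every setting run, 0 of the 8 members passed the adjusted threshold, with the replicate block, with the crossed pairing and at an adjusted p of 0.10 included, and the lowest adjusted p of a member was 0.523. The 6 settings that alter the values themselves (repeated quantile normalization, median centring and each pool left out) gave 48 member differences, of which 37 kept their sign and 11 reversed. Repeated quantile normalization turned Agt to -0.0054 and Npr3 to -0.0194, and median centring turned Npr3 to -0.0008. With pools left out in turn, differences ran from -0.0805 to 0.1195 for Agt, -0.002 to 0.107 for Ace, 0.022 to 0.08 for Agtr1a, -0.16 to 0.17 for Edn1, 0.013 to 0.248 for Ednrb, -0.143 to 0.049 for Npr1, -0.0455 to 0.0475 for Npr3 and -0.0455 to 0.1105 for Nos3. The within-array differences ran from -0.0495 to 0.1455 for Npr3 minus Npr1, -0.102 to 0.168 for Ace minus Agt and -0.169 to 0.114 for Edn1 minus Nos3. Among the other genes named, they changed sign for Ece1 (-0.179 to 0.053), Ece2 (-0.123 to 0.053), Nos1 (-0.013 to 0.037) and Npr2 (-0.066 to 0.143). The median of the members ran from 0 to 0.0545, and the count at an unadjusted p under 0.05 from 0 to 1, the 1 being Ednrb without Usp2-KO pool 2. Of the 67 other genes, 1 passed the adjusted threshold with the replicate block (Bdkrb2) and 0 in the other settings, the crossed pairing included. Edn1 was not tested under the filter above the median of all genes, and Ednra minus Ednrb was not run. The cause of the reversals was not tested. Edn1 and the other genes in the range of olfactory receptor signal are limited by background.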
